A study of Mus musculus with 6 samples.

Results

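The Hedgehog pathway genes described here are Ptch1, Smo, Gli1, Gli2, Gli3, Hhip, Gas1, Cdon and Boc, listed as the receptors, co-receptors, transducer, transcription factors and antagonist of the pathway and found in the count tables by mapping their Ensembl mouse identifiers to symbols. They make up 9 of the 55401 genes in the tables. RNA from NIH3T3 cells, an immortalized line of mouse embryonic fibroblasts, was measured by poly(A)-selected RNA-Seq in cells carrying an empty vector (EV) and cells stably expressing TAZ-CAMTA1 (TC), a fusion oncoprotein that acts through TEAD transcription factors. The study asked which genes TC alters and whether aurintricarboxylic acid (ATA), a small molecule reported to disrupt the complex of TAZ with TEAD, alters them back.

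All cells were NIH3T3, were left untreated for 16 h after seeding and were then kept in DMSO or ATA for 48 h. The EV group was empty vector with DMSO (2 libraries), the TC group was TAZ-CAMTA1 with DMSO (1 library) and the TC + ATA group was TAZ-CAMTA1 with ATA at 10 μM (3 libraries). No library of empty vector cells with ATA was analysed here, so the effect of ATA without TC was not measured. Total counts per library ran from 58471484 to 74413193, with a median of 71053010. The libraries are labelled as separate samples, but nothing says that they came from separate cultures, so p-values measure only the spread between these samples, which may be technical.

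Levels are given as CPM, the counts of a gene scaled to the library's total over the tested genes after TMM normalization. Differences are log2 fold changes with their standard error (SE) from edgeR's quasi-likelihood test, fitted to all 6 libraries over 18539 genes that passed its filter on low counts, with Benjamini-Hochberg adjustment over all of those genes. A gene was called at an adjusted p of at most 0.05. All 9 Hedgehog pathway genes passed the filter, although Hhip did so with 81 counts over the 6 libraries. TC has 1 library, so its spread was assumed to be that of the EV and TC + ATA libraries, which leave 3 residual degrees of freedom. The comparisons share samples, since the TC library enters both of its comparisons and the EV libraries enter both of theirs, so values are given side by side and not as independent results.

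The label of a fibroblast line was set beside marker genes. The 10 fibroblast markers summed to 17762 and 15424 CPM in EV, 19465 CPM in TC and 20371, 20113 and 19164 CPM in TC + ATA, with Col1a2 the most abundant. Epithelial markers summed to at most 0.494 CPM, endothelial markers to at most 3.75 CPM and blood and macrophage markers to at most 9.14 CPM in any library. Fibroblast markers were thus far above these in every library, as the label says. Skeletal muscle markers summed to between 27.4 and 43.1 CPM, nearly all of it Des. Neural markers, mainly Nes, summed to 27.7 and 23.7 CPM in EV, 80.4 CPM in TC and 53.0, 54.7 and 49.996 CPM in TC + ATA, and their part in the results below was not tested. The rise in the sum was that of Nes (20.4 and 16.7 CPM in EV, 73.6 CPM in TC). Tubb3, the other neural marker tested, went the other way. It stood at 7.31 and 7.04 CPM in EV, 6.74 CPM in TC and 4.21, 4.82 and 3.90 CPM in TC + ATA. Among the fibroblast markers, Vim (log2 fold change 0.64) and Col1a1 (0.53) were called higher in TC than in EV, and Thy1 (−1.47), Pdgfra (−1.20) and Fn1 (−0.83) were called lower, which is 2 of 10 against 14.8% of all genes tested and 3 of 10 against 13.2%.

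The EV libraries differed from each other more than the TC + ATA libraries did. Summed over genes and divided by its degrees of freedom, the chi-square of their counts was 63.0 within EV and 6.02 to 6.74 within TC + ATA. TC against TC + ATA libraries gave 23.4 to 25.5, and an EV library against any that expressed TC gave 225 to 270.0. Even the closest pair differed by more than sampling noise, and each library was used as a sample of its own.

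Hedgehog ligands are secreted proteins that bind PTCH1 on the receiving cell, helped by the co-receptors GAS1, CDON and BOC. Without ligand, PTCH1 holds the membrane protein SMO inactive, GLI3 is largely processed into a repressor of transcription, and full-length GLI2 is mostly degraded. With ligand, SMO gathers in the primary cilium and GLI2 and GLI3 become activators that switch on target genes such as Gli1, Ptch1 and Hhip. NIH3T3 fibroblasts carry primary cilia and are a standard cell for Hedgehog assays.

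In TC versus EV, Ptch1 and Smo were called higher and Gas1, Cdon and Gli2 were called lower, and Gli1, Gli3, Hhip and Boc were not called. The 2 genes called higher stand against 14.8% of all genes tested and the 3 called lower against 13.2%, which are the shares called in each direction over the whole table. None of the 9 also reached the study's limit of 2 on the absolute log2 fold change, which 3.64% of all genes tested passed together with the adjusted p, and Gas1 had the largest change among the called ones. Between TC + ATA and EV, 4 of the 9 were called higher, against 18.0% of all genes tested, and 3 lower, against 18.6%. Of the 9, edgeR called 0 between TC + ATA and TC, beside 0.426% of all genes tested for higher and 0.156% for lower. At an unadjusted p under 0.05 there were 3 of the 9 (Cdon, Gas1 and Hhip), beside 1048 higher and 733 lower among the 18539 genes tested, and DESeq2 called Gas1 and Cdon, beside 236 genes higher and 84 lower of the 28562 it tested. In bulk RNA, fewer cells that express a gene and less of its RNA per cell cannot be told apart.

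The ligand genes gave few or no reads. Shh had 0 counts in every library, which at a floor of 3 counts allows up to 0.0528 CPM in the shallowest of them. Ihh had between 9 and 19 counts per library and was not called (log2 fold change 0.72 in TC versus EV, adjusted p = 0.520 from edgeR). Its log2 fold change ran from 0.37 to 1.17 over the other settings. Dhh had 4 and 0 counts in EV, 49 in TC and 12, 12 and 17 in TC + ATA. The EV libraries thus sat near 0 for Dhh and every TC-expressing library was above them. edgeR called Dhh higher in TC than in EV (adjusted p = 0.00691). With only 4 counts in EV, the size of the change is poorly known. The fitted log2 fold change of 4.64 ran from 3.68 to 8.60 over the other settings.

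Gas1 (ENSMUSG00000052957, chromosome 13 from 60174405 to 60177365, minus strand, GRCm38) encodes a membrane-anchored co-receptor that binds Hedgehog ligands and promotes signalling. Gas1 stood at 553 and 513 CPM in EV, at 176 CPM in TC and at 233, 241 and 226 CPM in TC + ATA. The EV libraries were far above all TC-expressing libraries, and the TC library was below each TC + ATA library. Gas1 fell from 533 ± 28.2 CPM (SD, n = 2) in EV to 32.9% of that level in TC, a 3.04-fold decrease (log2 fold change −1.60, SE 0.10, adjusted p = 5.46e-06 from edgeR). Its TC + ATA mean was 233 ± 7.71 CPM (SD, n = 3), which was 43.8% of EV (log2 fold change −1.19, SE 0.07, adjusted p = 1.87e-06 from edgeR). TC + ATA was 1.33-fold above TC (log2 fold change 0.41, 95% interval 0.21 to 0.61, adjusted p = 0.101 from edgeR), and this difference was not called. Among the other settings it was called by DESeq2 (adjusted p = 0.00213), by edgeR with libraries scaled by their totals only (adjusted p = 0.0422), with no filter (adjusted p = 0.0164) and with only the groups compared (adjusted p = 0.000242), and without EV replicate 1 (adjusted p = 0.00027) or EV replicate 2 (adjusted p = 0.000224). Over all settings the adjusted p of this difference ran from 0.000224 to 0.604, while the log2 fold change stayed between 0.39 and 0.45.

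Cdon (ENSMUSG00000038119, chromosome 9 from 35421128 to 35507652, plus strand) encodes an immunoglobulin superfamily co-receptor for Hedgehog ligands. Cdon stood at 44.1 and 38.2 CPM in EV, at 21.7 CPM in TC and at 31.6, 33.2 and 30.0 CPM in TC + ATA. The groups did not overlap, with EV highest, TC + ATA between and TC lowest. In TC versus EV it fell by 0.92 on the log2 scale (SE 0.12, adjusted p = 0.000418 from edgeR), to 52.8% of the EV level. TC + ATA was also lower than EV (log2 fold change −0.38, SE 0.08, adjusted p = 0.00621 from edgeR), at 76.8% of the EV level. The largest positive value of the 9 genes in TC + ATA versus TC was that of Cdon, at 0.54 (95% interval 0.29 to 0.79, adjusted p = 0.0873 from edgeR), and it was not called. It was called by DESeq2 (adjusted p = 0.00438), by edgeR with no filter (adjusted p = 0.00597) and with only the groups compared (adjusted p = 0.00125), and without EV replicate 1 (adjusted p = 0.00159) or EV replicate 2 (adjusted p = 0.00136), with a range of 0.00125 to 0.355 over all settings. The 95% intervals of Gas1 and Cdon leave out 0 but are not adjusted for the number of genes tested.

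Boc (ENSMUSG00000022687, chromosome 16 from 44485049 to 44558897, minus strand) encodes the co-receptor most closely related to CDON. Boc stood at 8.84 and 10.3 CPM in EV, at 12.3 CPM in TC and at 13.3, 13.2 and 12.3 CPM in TC + ATA. All TC-expressing libraries were above both EV libraries, the opposite direction to Gas1 and Cdon. TC versus EV was not called (log2 fold change 0.37, 95% interval 0.07 to 0.66, adjusted p = 0.0656 from edgeR), although without EV replicate 2 it was (adjusted p = 0.0075, in a range of 0.0075 to 0.256 over all settings). TC + ATA versus EV was called (log2 fold change 0.44, SE 0.10, adjusted p = 0.00786 from edgeR). That Boc was called in TC + ATA versus EV and not in TC versus EV does not show that ATA changed it, and TC + ATA versus TC gave 0.07 (95% interval −0.21 to 0.35).

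**Figure D1:**
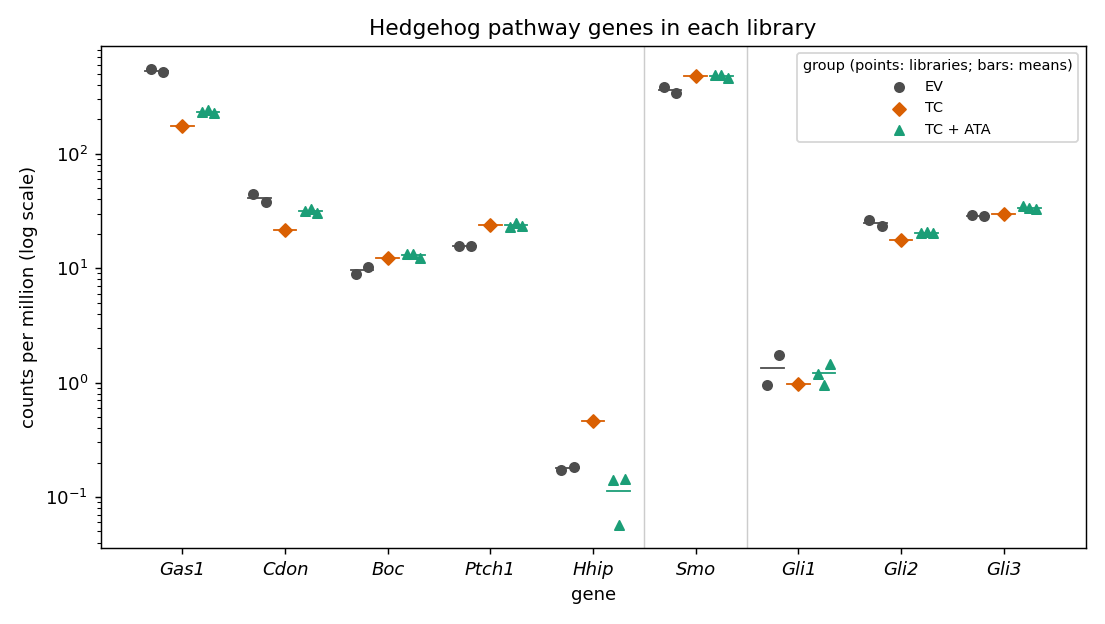
Levels in CPM on a log axis of the 9 Hedgehog pathway genes, ordered as co-receptors, receptor, antagonist, transducer and GLI factors, in EV (2 libraries), TC (1 library) and TC + ATA (3 libraries). Points are libraries, bars are group means, and Gas1 and Cdon are lower in all TC-expressing libraries than in EV, Ptch1 and Smo are higher, and the Gli1 groups overlap.

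Ptch1 (ENSMUSG00000021466, chromosome 13 from 63508328 to 63573598, minus strand) encodes the Hedgehog receptor, which represses SMO and is itself induced by the pathway. Ptch1 stood at 15.5 and 15.5 CPM in EV, at 24.0 CPM in TC and at 23.0, 24.9 and 23.4 CPM in TC + ATA. The EV libraries were nearly equal and below every TC-expressing library, and the TC library lay inside the TC + ATA range. Ptch1 increased by a log2 fold change of 0.63 in TC versus EV (SE 0.10, adjusted p = 0.00142 from edgeR) and 0.62 in TC + ATA versus EV (SE 0.08, adjusted p = 0.000254 from edgeR), 1.55-fold and 1.53-fold. Between TC + ATA and TC the Ptch1 value was −0.01 (95% interval −0.23 to 0.20), so a difference of more than 0.23 in either direction lies outside the interval. Both calls against EV held under every alternative run, with log2 fold changes of 0.52 to 0.66 in TC versus EV.

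Hhip (ENSMUSG00000064325, chromosome 8 from 79965851 to 80058006, minus strand) encodes a membrane protein that binds Hedgehog ligands, competes with PTCH1 for them and is induced by the pathway. Its counts were 13 and 14 in EV, 32 in TC and 8, 4 and 10 in TC + ATA. The TC library held the most reads and the TC + ATA libraries the fewest, and none of the comparisons was called. The intervals are wide at this depth, from −0.28 to 2.99 around 1.36 in TC versus EV and from −3.56 to −0.47 around −2.02 between TC + ATA and TC (edgeR adjusted p = 0.205 for the former and 0.351 for the latter). The TC side of both rests on the same 32 counts of 1 library.

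Smo (ENSMUSG00000001761, chromosome 6 from 29735503 to 29761365, plus strand) encodes the transducer that PTCH1 restrains. Smo stood at 380.2 and 343 CPM in EV, at 477 CPM in TC and at 489, 485 and 460 CPM in TC + ATA. Every TC-expressing library was above both EV libraries, and TC lay inside the TC + ATA range. Smo increased by a log2 fold change of 0.40 in TC versus EV (SE 0.10, adjusted p = 0.0133 from edgeR) and 0.40 in TC + ATA versus EV (SE 0.07, adjusted p = 0.00247 from edgeR), an increase of 1.32-fold in each. Between TC + ATA and TC the Smo value was 0.00 (95% interval −0.21 to 0.21). The TC versus EV call held in 10 of 13 other settings and was lost, among others, with only the groups compared (adjusted p = 0.218) and without TC + ATA replicate 2 (adjusted p = 0.051), in a range of 1.01e-05 to 0.218 over all settings, while the log2 fold change stayed between 0.30 and 0.47.

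Gli1 (ENSMUSG00000025407, chromosome 10 from 127329882 to 127341974, minus strand) encodes an activator that is a direct target of Hedgehog signalling and is often read as its output. Its counts were low, at 71 and 134 in EV, 67 in TC and 68, 67 and 102 in TC + ATA, or 0.949 and 1.76 CPM, 0.965 CPM and 1.20, 0.945 and 1.47 CPM. The EV libraries differed from each other by more than any group mean differed from another, and all groups overlapped. None of the comparisons was called, with log2 fold changes of −0.49 in TC versus EV (95% interval −1.51 to 0.54, adjusted p = 0.477 from edgeR), 0.32 in TC + ATA versus TC (−0.66 to 1.29, adjusted p = 0.873) and −0.17 in TC + ATA versus EV (−0.91 to 0.57, adjusted p = 0.725). A Gli1 change as large as that of Gas1 lies outside the interval of TC versus EV, whereas one as large as that of Cdon lies inside it. The sign of TC versus EV rests on EV replicate 2, without which it was 0.02 (adjusted p = 0.974 in edgeR, in a range of 0.115 to 0.974 over all settings).

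Gli2 (ENSMUSG00000048402, chromosome 1 from 118834132 to 119053619, minus strand) encodes the main activator of Hedgehog target genes. Gli2 stood at 26.2 and 23.2 CPM in EV, at 17.6 CPM in TC and at 20.2, 20.7 and 20.1 CPM in TC + ATA. The groups did not overlap, and TC was lowest. In TC versus EV it fell by 0.49 on the log2 scale (SE 0.11, adjusted p = 0.00945 from edgeR), a call lost only with the EV and TC libraries alone in the fit (adjusted p = 0.0514, in a range of 0.000424 to 0.0514 over all settings). TC + ATA was lower than EV as well (log2 fold change −0.28, SE 0.08, adjusted p = 0.0226 from edgeR), and that call held in 9 of 13 other settings and was lost, among others, without TC + ATA replicate 1, 2 or 3 (adjusted p = 0.0808, 0.0688 and 0.0867, in a range of 0.00224 to 0.123 over all settings). TC + ATA versus TC gave 0.21 (95% interval −0.02 to 0.45, adjusted p = 0.571 from edgeR) and was not called.

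Gli3 (ENSMUSG00000021318, chromosome 13 from 15463235 to 15730026, plus strand) encodes the main repressor of the pathway in the absence of ligand. Gli3 stood at 28.9 and 28.4 CPM in EV, at 29.7 CPM in TC and at 34.6, 33.4 and 33.0 CPM in TC + ATA. The EV and TC libraries lay within a narrow band and the TC + ATA libraries above it. TC versus EV was not called (log2 fold change 0.05, 95% interval −0.15 to 0.25, adjusted p = 0.710 from edgeR), and with libraries scaled by their totals only it was −0.06. TC + ATA versus EV was called (log2 fold change 0.23, SE 0.07, adjusted p = 0.0216 from edgeR), a call that held in 8 of 13 other settings and was lost, among others, with libraries scaled by their totals only (adjusted p = 0.142) and without TC + ATA replicate 1, 2 or 3 (adjusted p = 0.0953, 0.0793 and 0.0606), in a range of 0.00795 to 0.142 over all settings. TC + ATA versus TC gave 0.18 (95% interval −0.01 to 0.37, adjusted p = 0.546 from edgeR). A p that misses the threshold does not show that values did not differ.

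**Figure D2:**
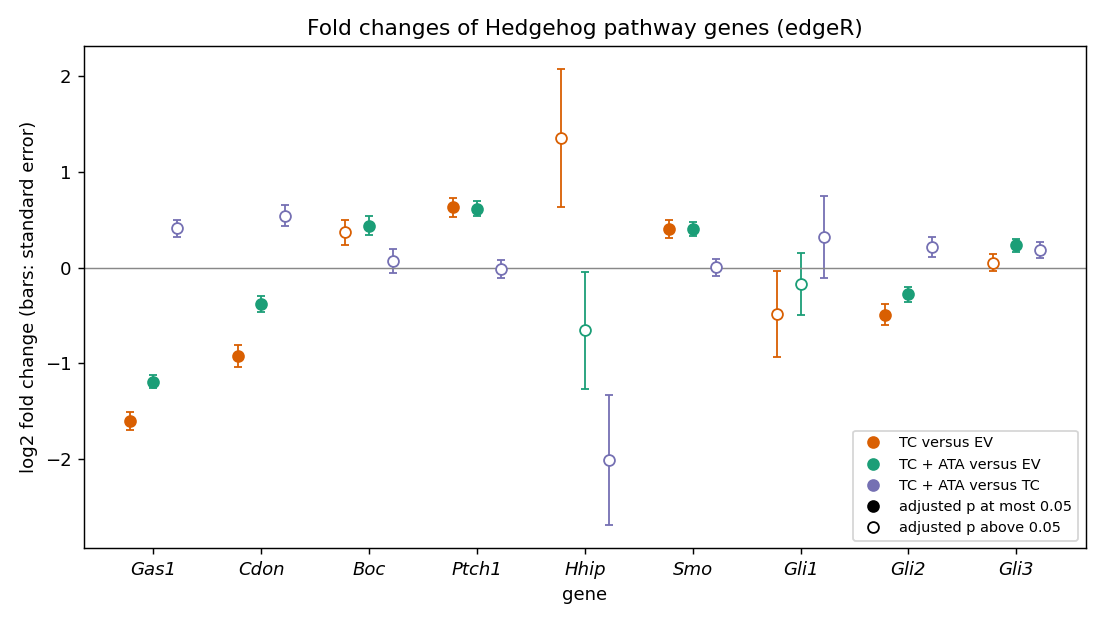
Log2 fold changes from edgeR of the 9 genes in all 3 comparisons, with standard errors as bars, where filled points have an adjusted p of at most 0.05 and open points do not. The points of TC + ATA versus TC are all open, with Cdon at 0.54 and Gas1 at 0.41 above 0 and Hhip at −2.02 below it with the widest bar.

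Every TC + ATA library was above the TC library for 5 of the 9 genes (Gli2, Gli3, Gas1, Cdon and Boc), against 30.5% of all genes tested, and below it for 1 (Hhip), against 32.7%. With a single TC library, an error in that library alone would shift every one of these genes relative to it. The median log2 fold change of the 9 genes was 0.05 in TC versus EV (−0.03 over all genes tested), 0.18 in TC + ATA versus TC (0.00) and −0.17 in TC + ATA versus EV (−0.01). The median in TC versus EV is the value of Gli3, which turned to −0.055 with libraries scaled by their totals only. That in TC + ATA versus EV is the value of Gli1, which ran from −0.56 to 0.35 with 1 library left out. The signs of these medians are therefore not firm.

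Levels can be set beside each other between genes only per length. In CPM per kilobase of exon, the EV means ran from Gas1 at 180.0 and Smo at 64.3 down through Cdon at 5.33, Gli2 at 3.59, Gli3 at 2.99, Boc at 2.14, Ptch1 at 1.09 and Gli1 at 0.271 to Hhip at 0.0197. No neighbours in that order overlapped between the EV libraries. In TC the first places were exchanged, with Smo at 84.9 and Gas1 at 59.3 CPM per kilobase, and Gli3 (3.10), Cdon (2.81), Boc (2.77) and Gli2 (2.56) far below them and close to each other. In TC + ATA, Smo (85.0) and Gas1 (78.8) were again first, Cdon (4.10) was above Gli3 (3.51), and the libraries of Gli2 (2.96) and Boc (2.90) overlapped. On this scale the receptor Ptch1 was below each of its co-receptors Gas1, Cdon and Boc in all groups. Lengths here join the exons of all annotated transcripts, which gives 14185 bases for Ptch1 and 4451 for Boc. Which transcripts the cells made was not measured, and a shorter one would raise its gene's value. The order of genes, such as Ptch1 below Boc, therefore holds for these lengths only.

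Parts of some of these genes are also covered by genes on the opposite strand, and the use of strand in counting is not given in the sources used here. Gli1 shares 327 of its 4995 exonic bases with Arhgap9 and Gm47200. Arhgap9 had 82 and 62 counts in EV, 142 in TC and 138, 197 and 194 in TC + ATA, beside 67 to 134 counts of Gli1 itself, and whether the Gli1 counts hold reads of it was not tested. Gas1 shares 589 of 2961 bases with Gm48488, which had between 113 and 165 counts per library beside at least 12186 for Gas1. Gli3 shares 188 of 9589 bases with Gm6556, which had at most 57 counts, and Hhip shares 175 of 9076 bases with Gm27820, which had none.

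Wider lists of Hedgehog and cilium genes, taken without the 9 genes above, held 128 genes, of which 120 were tested. The edgeR test called 59 of them in TC versus EV (58 by DESeq2, 35 to 77 over the alternatives), where 14.8% of all genes tested were higher and 13.2% lower, and 71 in TC + ATA versus EV (63 by DESeq2, 48 to 80 over the alternatives), where 18.0% were higher and 18.6% lower. Between TC + ATA and TC, 1 was called by edgeR (Sox9) and 3 by DESeq2, with 17 at an unadjusted p under 0.05, and between 0 and 11 over the alternatives. Of all 18539 genes tested there, edgeR had 0.426% higher and 0.156% lower, and 1048 higher and 733 lower at an unadjusted p under 0.05.

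The ligand list (synthesis and release) had 3 of 7 tested genes called higher in TC than in EV, against 14.8% of all genes tested. Its median log2 fold change was 0.72, the value of Disp1, and was 0.37 without EV replicate 1. Of the tested genes, Ihh, Dhh, Disp2 and Scube3 had means under 1 CPM over the 6 libraries. Called higher were Gpc6 (log2 fold change 2.26, adjusted p = 1.22e-06 from edgeR), Disp1 (0.72, adjusted p = 0.000413) and Dhh. Disp1 encodes a protein that releases lipid-modified ligand from the cells that make it. Gpc6 encodes a glypican, and the glypican genes Gpc1, Gpc3 and Gpc4 were placed in the list of receptors instead. Gpc6 stood at 3.96 and 3.9999 CPM in EV, 19.1 CPM in TC and 25.5, 24.2 and 24.0 CPM in TC + ATA. The list of receptors, co-receptors and glypicans held 7 tested genes, 3 higher in TC (against 14.8% of all genes tested) and 1 lower (against 13.2%), with a median of 0.64. The glypicans Gpc1 (0.67, adjusted p = 0.000539 from edgeR) and Gpc4 (0.64, adjusted p = 0.000944) bind Hedgehog ligands at the cell surface through heparan sulfate. The glypican gene Gpc3, named after its values were seen, went the other way and was not called (−2.67, adjusted p = 0.0859 from edgeR). It had 27 and 30 counts in EV, 4 in TC and 14, 9 and 4 in TC + ATA. Lrp2, a large endocytic receptor named after its values were seen because its mean level is under 1 CPM, had 19 and 9 counts in EV, 104 in TC and 42, 55 and 58 in TC + ATA (log2 fold change 3.00, adjusted p = 0.00146). Ext1, an enzyme of heparan sulfate synthesis, was called lower (−0.36, adjusted p = 0.00961), a call that held in 11 of 13 other settings but not, for example, with only the groups compared (adjusted p = 0.17, in a range of 5.61e-05 to 0.17).

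Of 21 transducers and negative regulators, TC had 4 higher (against 14.8% of all genes tested) and 7 lower (against 13.2%) than EV, and their median was −0.15. With libraries scaled by their totals only, 1 was higher and 9 were lower, with a median of −0.25. The 7 lower became 1 with only the groups compared, where Efcab7, Arrb2 and Gpr161 were not called, and were 5 to 10 with 1 library left out. The largest decrease was in Evc, which encodes a ciliary protein that relays SMO activity (−0.92, SE 0.11, adjusted p = 0.000307 from edgeR), at 84.7 and 100.4 CPM in EV, 49.0 CPM in TC and 53.9, 51.9 and 51.6 CPM in TC + ATA. Its partner gene Efcab7 (−0.54, adjusted p = 0.00791), the arrestin gene Arrb2 (−0.46, adjusted p = 0.013) and Gpr161 (−0.42, adjusted p = 0.0131), which encodes a ciliary receptor that restrains the pathway, were lower as well. Among the genes called higher were Arrb1 (0.38), Gnai2 (0.36) and Grk2 (0.23), the last named after its values were seen, and 0 of the list were called higher without any one of the TC + ATA replicates or with only the groups compared. The suppressor genes Sufu (−0.13, adjusted p = 0.411) and Kif7 (−0.04, adjusted p = 0.898) were not called in TC versus EV, although Sufu was without EV replicate 2 (adjusted p = 0.0435, in a range of 0.0435 to 0.682). The sign of Kif7 turned to 0.19 without that library, in which Kif7 stood at 20.4 CPM beside 15.1 CPM in EV replicate 1. The log2 fold change of Sufu in TC versus EV ran from −0.23 to −0.05 over the other settings.

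Of 19 other GLI-related and GLI processing genes, TC had 2 higher and 3 lower than EV, numbers near the shares of all genes tested (14.8% and 13.2%), and their median was −0.04. With libraries scaled by their totals only, that median was −0.15. Without EV replicate 2 there were 4 higher and 5 lower with a median of 0.03, without EV replicate 1 there were 3 higher and 5 lower, and without TC + ATA replicate 1, 2 or 3 the lower were 1 each time. Higher were Glis2, a GLI-similar transcription factor gene (0.68, adjusted p = 0.000213 from edgeR), and Spop, which encodes an adaptor for the degradation of GLI2 and GLI3 (0.88, adjusted p = 7.41e-05) and stood at 158 and 146 CPM in EV, 279 CPM in TC and 254, 244 and 253 CPM in TC + ATA. The kinase gene Stk36 (−0.74, adjusted p = 0.0132), Btrc (−0.34, adjusted p = 0.0253), which encodes a ubiquitin ligase subunit that acts on GLI proteins, and the kinase gene Csnk1a1 (−0.27, adjusted p = 0.0416) were lower. Both Btrc and Csnk1a1 were called in 8 of 13 other settings. Without TC + ATA replicate 1, 2 or 3, among others, Btrc (adjusted p = 0.0585, 0.0656 and 0.0554, in a range of 0.00183 to 0.175) and Csnk1a1 (adjusted p = 0.113, 0.133 and 0.102, in a range of 9.86e-05 to 0.456) were not called.

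Of 44 tested genes of primary cilium transport and membrane, 24 were called lower in TC than in EV, against 13.2% of all genes tested, and 0 higher, against 14.8%, and their median log2 fold change was −0.42. The 0 higher became 1 without EV replicate 1 and 5 without EV replicate 2. Between TC + ATA and EV, 27 were called lower, against 18.6% of all genes tested, and 1 higher (Tctn2, 0.42, named after its values were seen), against 18.0%, with a median of −0.35. That 1 became 2 without EV replicate 1 and 6 without EV replicate 2. The largest decreases in TC versus EV were in Ift81 (−1.22, adjusted p = 9.57e-05 from edgeR), which encodes a subunit of the intraflagellar transport particle, and in Bbs2 (−1.21, adjusted p = 0.000685) and Bbs9 (−1.10, adjusted p = 0.00413), which encode subunits of the BBSome, a complex that moves membrane proteins in and out of the cilium. Ift81 stood at 34.1 and 37.5 CPM in EV, 15.4 CPM in TC and 18.1, 17.5 and 20.03 CPM in TC + ATA, with every TC-expressing library below both EV libraries. The number called lower in TC versus EV ran from 15 to 31 over the alternatives, and from 17 to 31 with 1 library left out, and no gene of the list was called in TC + ATA versus TC under any alternative run (cilia themselves were not measured).

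Of 23 tested genes reported as GLI targets, TC had 5 higher (against 14.8% of all genes tested) and 7 lower (against 13.2%) than EV. Their median was −0.23, in a range of −0.34 to −0.10 over the alternatives. Higher were Foxf1 (2.57, adjusted p = 7.51e-07 from edgeR), a forkhead factor gene, Ccnd1 (1.96, adjusted p = 1.15e-06), which encodes cyclin D1, Cdk6 (1.63, adjusted p = 2.79e-06), a partner kinase of D-type cyclins, and, named after their values were seen, Igfbp6 (1.24) and Ccnd2 (0.31). Lower were, among others, the odd-skipped factor genes Osr2 (−2.31, adjusted p = 6.36e-05) and Osr1 (−1.54, adjusted p = 3.01e-06) and the secreted Wnt inhibitor gene Sfrp1 (−1.09, adjusted p = 0.00251). Sox9 was called lower in TC + ATA than in TC (−0.56, SE 0.08, adjusted p = 0.0259 from edgeR). Sox9, a chondrogenic transcription factor gene, stood at 54.5 and 56.3 CPM in EV, 47.3 CPM in TC and 33.4, 32.6 and 30.3 CPM in TC + ATA, so the TC + ATA libraries were below all others. The Sox9 call held in 8 of 13 other settings and was lost, among others, with libraries scaled by their totals only (adjusted p = 0.0658) and without TC + ATA replicate 1, 2 or 3 (adjusted p = 0.107, 0.165 and 0.174), in a range of 0.000289 to 0.273 over all settings.

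**Figure D3:**
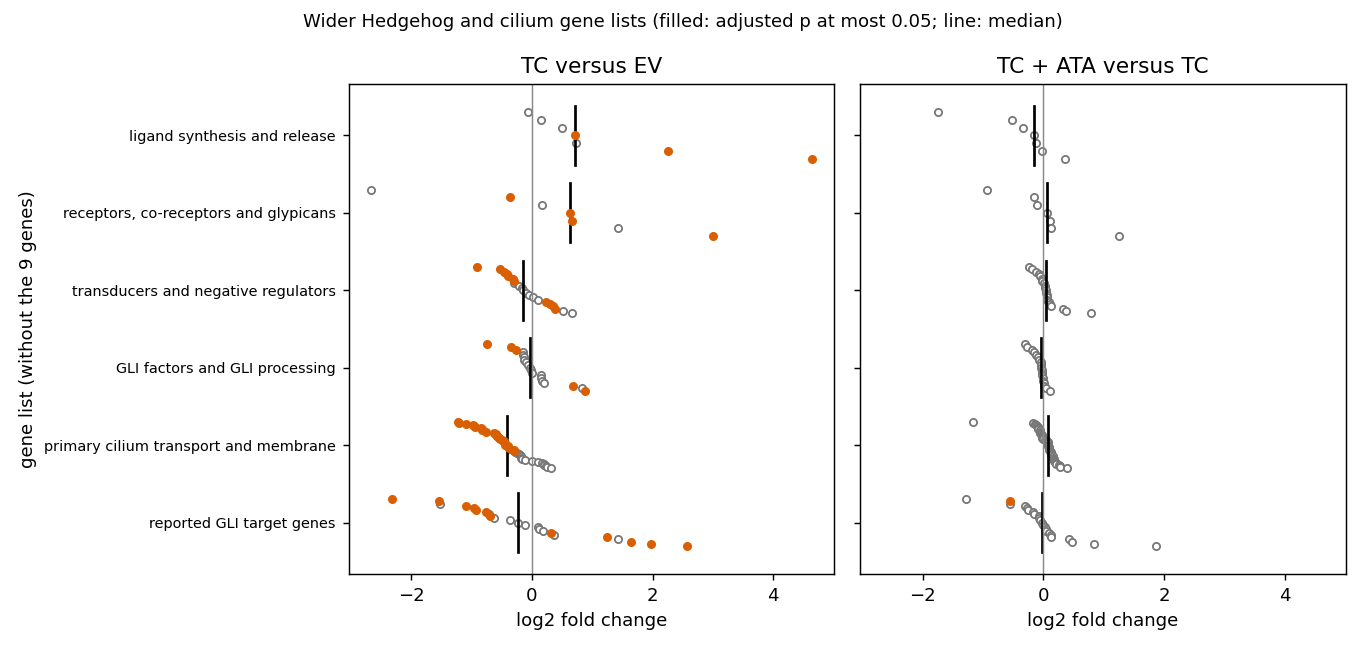
Log2 fold changes of the tested genes of 6 lists, without the 9 Hedgehog pathway genes, in TC versus EV (left) and TC + ATA versus TC (right), where points are genes, filled where the adjusted p from edgeR is at most 0.05, and vertical lines are list medians. In TC versus EV the primary cilium list has 24 filled points, all below 0, and in TC + ATA versus TC the only filled point is Sox9.

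Patterns over the 6 libraries were compared by the root mean square difference in log2(CPM + 1) centred on each gene's mean, among 12711 genes with a mean of 1 CPM or more. Closest to Gas1 were Col6a1 (difference 0.03), Fzd1 (0.05) and Thy1 (0.06), where Gas1 itself ranged over 1.65 on that scale. Closest to Ptch1, which ranged over 0.65, were Sos1 (0.02), Zc3hav1 (0.02) and Nus1 (0.03). Closest to Gli1, which ranged over only 0.50, were Ece2 (0.05), Ccdc134 (0.06) and Ermard (0.06). The highest Gli1 value was that of EV replicate 2 (1.76 CPM), whereas EV replicate 1 stood at 0.949 CPM, so its pattern is largely a difference between replicates. The closest of 12711 genes were picked each time, so nearness alone shows no link between genes.

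Sequence around the gene starts was read from RefSeq windows on GRCm38.p6, each of 300 bases from 250 bases before to 50 after the start, which were found for 7 of the 9 genes (not Gli1 or Boc). The windows were searched on both strands for the GLI consensus GACCACCCA (TGGGTGGTC on the other strand), because the GLI factors act through it, and for the TEAD core CATTCC (on the other strand GGAATG), because TC acts through TEAD. The GLI consensus occurs in 83 of 32851 windows of all genes (0.253%) and in none of the 7. The TEAD core occurs in 4817 of them (14.7%) and in 1 of the 7, that of Smo, where 11 bases separate it from the RefSeq start at 29735497. The stretch, at chr6:29735464-29735501 on the plus strand with the TEAD core in capitals (positions 29735480 to 29735485), is shown because Smo was among the genes called higher in TC.
Smo: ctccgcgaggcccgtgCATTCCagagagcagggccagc
A match of these letters is a description and not a binding site, and no match says only that the letters are not in that window. The RefSeq windows of Cdon (35451826 to 35452125), Ptch1 (63565686 to 63565985) and Gli3 (15463473 to 15463772) lie inside the genes as annotated in GENCODE, and that of Gas1 (60177486 to 60177785) lies before the annotated gene.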

How the data were processed

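Bulk RNA-Seq of 6 NIH3T3 libraries was analysed, with groups, replicate numbers, dose and times taken from the labels. Per the labels and the methods of the study, the authors selected poly(A) RNA, prepared libraries with the NEBNext Ultra II kit, aligned paired-end reads to GRCm38.p6 (mm10) with HISAT2 2.2.1 in Galaxy and summarized them by gene with featureCounts. What they deposited are unnormalized whole-number counts, used here as they stand. The annotation release and the strand setting are not given in the sources used here.

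Identifiers were matched to GENCODE M21 (GRCm38), which held 55141 of 55401. The tests ran under R 4.3.3 in edgeR 4.0.16 (TMM, filterByExpr by group, glmQLFit, glmQLFTest) on a single fit of all 6 libraries, with Benjamini-Hochberg adjustment, SE derived from the F statistic and 95% intervals from the fit's degrees of freedom. The filter left 18539 genes and removed 36862. Total counts ran from 58471484 to 74413193, a 1.27-fold range. Floors and counts cover counting error only. The study itself used DESeq2, which with 1 TC library served here as an alternative (DESeq2 1.42.0). The step was tested on simulated counts.

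The 9 genes and the gene lists were chosen with earlier results of these data known. The named genes were the 9, the genes Shh, Ihh, Dhh, Sufu, Kif7 and Gpr161, and from each pathway list at most 3 largest called increases and 3 largest called decreases with a mean of at least 1 CPM in TC versus EV or between TC + ATA and TC, besides the 3 genes closest in pattern to Gli1, Ptch1 and Gas1. Some genes that this rule names are not reported here. Marker lists covered fibroblast, epithelial, endothelial, blood and macrophage, skeletal muscle and neural genes. Alternatives were scaling by library size only, upper quartile scaling, DESeq2 size factors in edgeR, DESeq2, edgeR with only the groups compared, no filter on low counts, a filter of at least 5 CPM in at least 1 library, a replicate block, and the removal of any single EV or TC + ATA replicate. Leaving out an EV replicate leaves EV with 1 library, which is then assumed to vary like TC + ATA.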

Additional observations from a re-analysis of the deposited data

How the results depend on the processing

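The calls of Ptch1, Gas1 and Cdon against EV held under every alternative run in TC versus EV as well as between TC + ATA and EV, and those of Smo and Boc in TC + ATA versus EV did too. Calls of TC versus EV over all genes were 2735 higher and 2456 lower. They became 2072 and 3159 with library size only, which moved the median log2 fold change of all genes from −0.03 to −0.13, and 1717 and 1467 with a replicate block, and ran from 1912 to 3708 lower with 1 library left out. The 2 Hedgehog pathway genes called higher became 1 with only the groups compared and with the block, and 1 to 3 with 1 library left out. In TC + ATA versus TC, the 79 genes called higher became 236 with DESeq2, 795 with only the groups compared, 242 with no filter on low counts, 32 with the block, and 7 to 808 with 1 library left out. The 29 called lower became 84, 633, 108 and 8 in the same order, and 3 to 762 with 1 library left out. Of the 9 genes none was called higher there by edgeR, whereas 2 were with DESeq2, with only the groups compared and with no filter, 1 with library size only, and 0 to 2 with 1 library left out. Without an EV replicate, the pair with the widest spread no longer enters the shared estimate. In TC + ATA versus EV, 3449 genes called lower became 2195 with the block. Cilium genes called lower in TC versus EV were 24, and 15 with the block, and the 7 transducers and negative regulators called lower became 1. The cause of these shifts was not tested.

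Signs that turned all belong to differences that were not called. They were Gli3 in TC versus EV (−0.055 with library size only), Gli1 in TC versus EV (−0.88 to 0.022 with 1 library left out) and in TC + ATA versus EV (−0.56 to 0.35, likewise), Ptch1 in TC + ATA versus TC (0.0059 with library size only, −0.049 to 0.0090 with 1 library left out), Smo there (−0.0016 with no filter, −0.014 to 0.031 with 1 library left out) and Kif7 in TC versus EV (0.052 with the block, −0.25 to 0.19 with 1 library left out). The cause was not tested.

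Replicate numbers 1 and 2 occur in both EV and TC + ATA, and TC has number 1 only. Same-numbered EV and TC + ATA libraries did not deviate together (correlations of deviations over 18539 genes −0.02 and −0.16), so the numbers were not taken as pairs. With 2 EV libraries, the deviations of one mirror those of the other, so these correlations are not separate checks of pairing. With the block, the calls of Smo in TC versus EV (adjusted p = 0.148 from edgeR) and of Gli2 (0.123) and Gli3 (0.116) in TC + ATA versus EV were lost, as were Ext1, Arrb1, Gnai2, Efcab7, Arrb2, Stk36, Btrc, Csnk1a1 and Gpr161 in TC versus EV and Sox9 in TC + ATA versus TC. Gli1 and Hhip have no value under the filter of at least 5 CPM, which they did not pass. Counts are low for Hhip and the ligand genes, Gli1 varied between the EV libraries (71 and 134 counts), and 1 TC library limits every comparison with TC.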
